A study of Mus musculus with 6 samples.

Results

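The nuclear-encoded subunits of the oxidative phosphorylation machinery were examined in 6 samples of CT26 tumour RNA, 3 labelled as treated with irinotecan and 3 as treated with solvent. Members were chosen by name: the protein-coding genes whose symbols begin with Ndufa, Ndufb, Ndufc, Ndufs or Ndufv (without the Ndufaf assembly factors), with Sdha to Sdhd, Uqcr, Cox4i, Cox5 to Cox8, or Atp5. The rule found 87 genes of the 25251 in the deposited table: 38 for complex I, 8 for complex II, 8 for complex III, 16 for complex IV and 17 for complex V. The rule rests on names and biotype, not on measured values. Cox7b2 and Cox8c were not analysed here. Some of the 87 are not structural subunits of the complex they are named after. Sdhaf1 to Sdhaf4 are assembly factors of complex II, Atp5s is a coupling factor, Cox7a2l helps to join complexes III and IV into supercomplexes, and Ndufa4, named as a complex I gene, is now known as a subunit of complex IV. Cyc1, the cytochrome c1 of complex III, lies outside the rule, as do the 13 subunits encoded by mitochondrial DNA. They are given below with the other genes of the pathway.

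CT26 is a colon carcinoma cell line of BALB/c mice, labelled wild type here, and the tumours were grown under the skin of that strain. Animals were randomized at a tumour volume of 100 mm3. The treated group received irinotecan (CPT-11), a prodrug of a topoisomerase I inhibitor, at 25 mg/kg into the peritoneum every 4 days, and the control group is labelled as solvent-treated. The series text mentions duplicates while the labels list 3 samples a group, and nothing says that each came from its own mouse, so each p-value below rests on a spread between samples that may be technical. The age of the mice and the time between the last dose and collection are not stated in those labels. Each value is from whole-tumour RNA, in which fewer cells of a type and less RNA per cell cannot be told apart.

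The libraries held 13940650 to 15656894 reads, of which the 87 genes took 0.635%, 0.591% and 0.606% in control replicates 1, 2 and 3 and 0.492%, 0.629% and 0.627% in irinotecan replicates 1, 2 and 3. Of these libraries, irinotecan replicate 1 was unlike the rest. It had reads for 19040 genes, against 20571 to 21426 in the others, and the fit that estimates a weight for each library gave it 0.127, against 1.19 to 1.88. Medians of gene groups, and fold changes that moved by over 1.5 times or changed sign without this library, are therefore given with and without it.

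Oxidative phosphorylation moves electrons from NADH (complex I) and succinate (complex II) through ubiquinone, complex III and cytochrome c to oxygen at complex IV, and the proton gradient built on the way drives ATP synthesis by complex V. Complexes I, III, IV and V combine subunits made from nuclear genes with subunits made inside the mitochondrion, whereas complex II is nuclear throughout. Core subunits carry the redox centres or the catalytic sites, and the accessory subunits around them serve assembly, stability and regulation. The transcription factors NRF1, GABP (an ETS family factor) and YY1 are known to act at the promoters of many of these genes.

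The promoters of 4 members, from complexes I, III, IV and V, are shown because they carry the short sequences that these factors are known to bind. The stretches come from RefSeq windows (GRCm38.p6, 250 bases before to 50 after each gene's start), which matched 72 of the 87 genes, and each printed stretch ends before the gene's annotated exons. All 4 genes lie on the minus strand, at chr15:82354323-82354541 (Ndufa6), chr10:80406831-80407071 (Uqcr11), chr5:115348982-115349129 (Cox6a1) and chr9:44920752-44920992 (Atp5l), and the sequences read 5′ to 3′ in the direction of the gene. Capitals mark matches to the NRF1 motif GCATGCGC (GCGCATGC on the other strand) or the ETS motif, which is CCGGAAG on the strand of the gene and CTTCCGG when the other strand carries it.
Ndufa6: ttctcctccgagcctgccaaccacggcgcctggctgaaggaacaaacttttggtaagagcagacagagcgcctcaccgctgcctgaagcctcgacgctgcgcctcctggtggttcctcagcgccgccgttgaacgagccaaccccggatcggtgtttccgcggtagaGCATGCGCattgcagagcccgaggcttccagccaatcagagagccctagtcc
Uqcr11: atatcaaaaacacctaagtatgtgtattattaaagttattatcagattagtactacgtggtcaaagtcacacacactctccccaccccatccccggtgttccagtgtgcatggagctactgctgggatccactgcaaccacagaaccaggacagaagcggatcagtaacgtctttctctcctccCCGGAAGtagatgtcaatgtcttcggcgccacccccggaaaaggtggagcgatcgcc
Cox6a1: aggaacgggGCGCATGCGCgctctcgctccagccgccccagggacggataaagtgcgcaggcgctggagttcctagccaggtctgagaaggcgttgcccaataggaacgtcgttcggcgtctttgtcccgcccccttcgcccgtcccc
Atp5l: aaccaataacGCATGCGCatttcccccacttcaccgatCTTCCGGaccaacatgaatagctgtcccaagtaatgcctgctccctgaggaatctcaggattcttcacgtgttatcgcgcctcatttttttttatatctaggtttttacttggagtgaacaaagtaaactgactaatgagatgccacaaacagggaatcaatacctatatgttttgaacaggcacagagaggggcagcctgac
The capitals in Cox6a1 are 2 overlapping NRF1 matches, 1 on each strand, and Atp5l carries 1 match to each motif. Over the 77 windows of the 72 genes, the NRF1 motif was found on either strand in 13.0%, against 2.71% of all 32851 windows in the RefSeq table and 5.08% of the 12496 windows of protein-coding genes tested here. The ETS motif was found in 24.7% of the members' windows, against 8.86% and 17.0%. The YY1 motif AAGATGGC (GCCATCTT on the other strand) was found in 13.0%, against 2.75% and 4.32%. No motif is part of another. A match is a run of letters in the window and no measurement of binding.

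Values are normalized counts, that is, reads divided by 1 factor per library, and values by library are given as control replicates 1, 2 and 3 against irinotecan replicates 1, 2 and 3. Levels of the 87 genes, set on a per-length scale (normalized count per kilobase of deposited gene length), ran over 3 orders of magnitude, from 2.26 for Cox8b to 3304 for Atp5b. Atp5b, the catalytic beta subunit of ATP synthase, had 3367 ± 108 per kilobase in the controls and 3242 ± 85.4 with irinotecan (SD, n = 3 each). Its neighbours in the order were Cox7a2l at 3076 ± 251 and 2920.0 ± 282 and Atp5a1, the alpha subunit of the same catalytic head, at 2727 ± 128 and 2941 ± 362. The ranges of these 3 genes overlapped within 1 SD in the irinotecan group, so their order is not resolved there. Cox6a1, a subunit of complex IV, followed at 2090.1 ± 227 and 1785 ± 956. In complexes III and II the leading genes were Uqcrh, at a mean of 1008 per kilobase over the 6 libraries, and Sdhd, at 762. The median of the 87 was 301.7 per kilobase. Levels on this scale, and their order, depend on the deposited gene lengths.

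**Figure D1:**
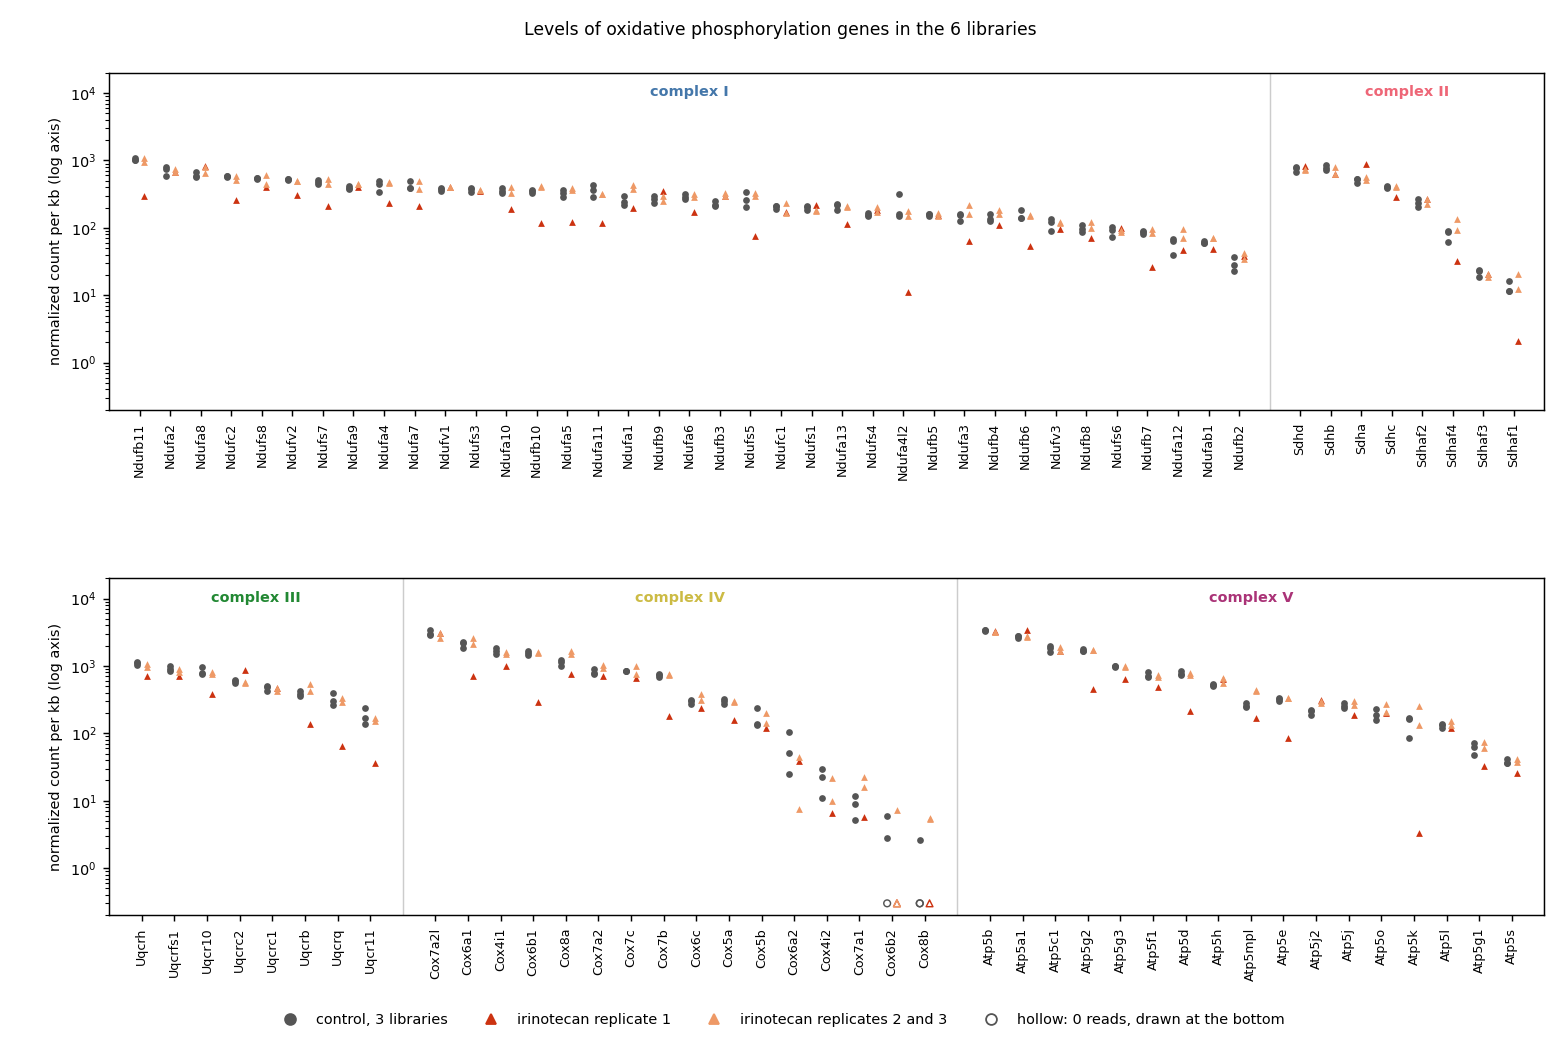
Normalized count per kilobase of gene (log axis) for the members shown, grouped by complex, with 1 point per library; circles are controls and triangles irinotecan, replicate 1 in the darker shade. The point of irinotecan replicate 1 is the lowest in 53 of the 84 tested members, and in Atp5k, whose other 5 libraries are themselves spread from 52.3 to 154 normalized counts, it comes from 2 reads.

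With irinotecan the 84 members that had a mean normalized count of at least 10, and so were tested, gave 0 genes called higher and 0 called lower by limma at an adjusted p under 0.05. Over all 14639 genes tested limma called 0% in each direction. An unadjusted p under 0.05 was reached by 2 members, Atp5j2 and Ndufb3, both with higher values (background 2.68% of all genes higher and 3.08% lower). Count tests run on the recovered reads with edgeR, limma-voom and DESeq2 also called 0 members, and DESeq2 called 0.2% of its 13984 genes higher and 0.136% lower. In the authors' deposited table the smallest adjusted p among the 87 is 0.252, for Atp5j2. On the log2(normalized count + 1) scale used throughout, the fold change was positive in 26 of the 84 members, against 48.2% of all genes, and its median was -0.13, against -0.01. Without irinotecan replicate 1 it was positive in 54 of 84 members, against 49.5% of all genes, and the median was 0.04, so the sign of the median rests on that library.

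The difference lay in irinotecan replicate 1. Relative to the control mean, the median over the 84 members was 0.06, -0.05 and -0.01 (log2) in control replicates 1, 2 and 3, and -0.48, 0.05 and 0.03 in irinotecan replicates 1, 2 and 3, while the median over all genes in irinotecan replicate 1 was -0.02. That library held the lowest of the 6 values in 53 of 84 members, against 36.8% of all genes, and was under 50% of the control mean in 25, against 14.4%. It held the highest of the 6 values in 8 members. Irinotecan replicates 2 and 3 had medians inside the range of the controls.

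**Figure D2:**
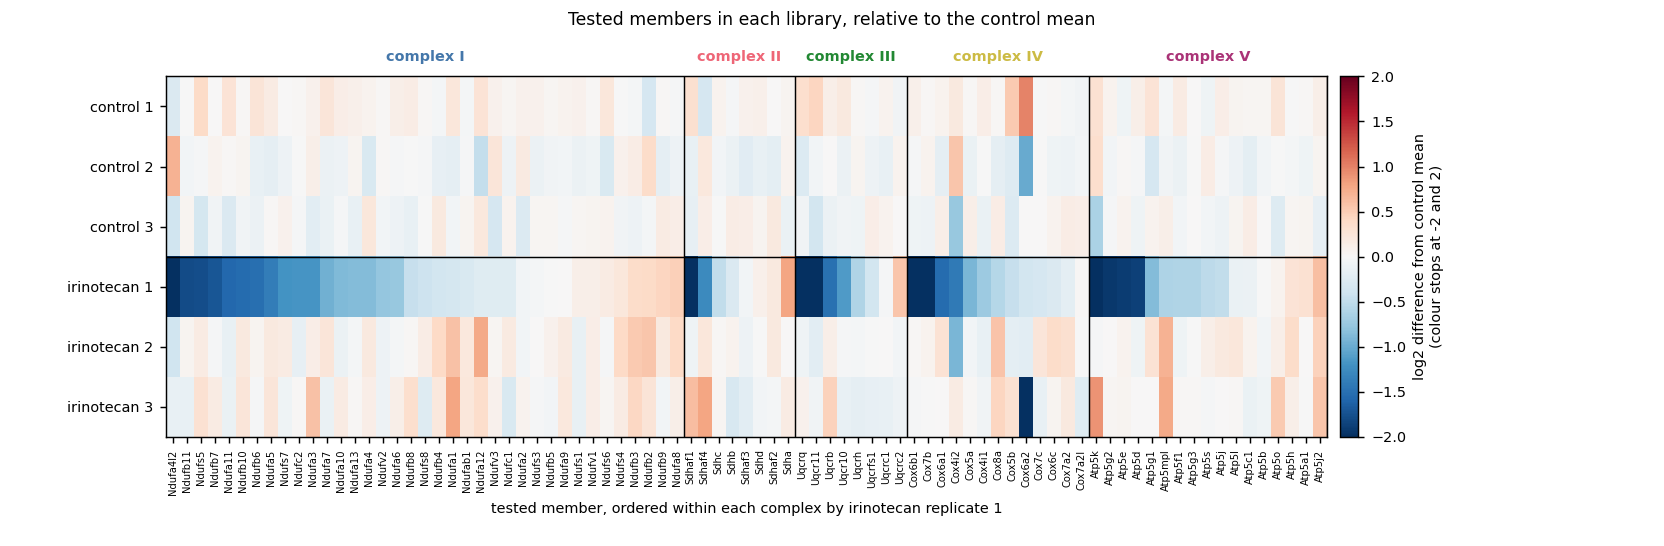
Log2 difference from the control mean for the tested members shown (columns, grouped by complex and ordered by irinotecan replicate 1) in each of the 6 libraries (rows); the colour scale stops at -2 and 2. Blue columns are concentrated in the row of irinotecan replicate 1, whose median is -0.48.

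The libraries of the groups did not overlap for 6 members. All irinotecan values lay above all controls for Ndufb3, Ndufs4, Ndufv1, Atp5h and Atp5j2, that is 5 of 84 where the background is 6.68%. They lay below all controls for Ndufv2, 1 of 84 where the background is 7.89%.

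The complexes differed in how far irinotecan replicate 1 lay below the controls. Its median relative to the control mean was -0.39 for complex I, -0.17 for complex II, -0.87 for complex III, -0.58 for complex IV and -0.53 for complex V. In the other irinotecan libraries these medians stayed between -0.12 (complex III, replicate 3) and 0.14 (complex I, replicate 2). The complexes also differed in the median length of their tested genes, at 1532, 2793, 1300, 1131 and 2039 bases for complexes I to V. Within complex II, irinotecan replicate 1 had a median of -0.09 for the 4 subunits and -0.67 for the 4 assembly factors. None of the assembly factors lay near that median. Sdhaf1 was at -2.46 (5 reads), Sdhaf4 at -1.28 (27 reads), Sdhaf3 at -0.06 and Sdhaf2 at 0.20. The differences between complexes, and the part of gene length in them, were not tested.

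**Figure D3:**
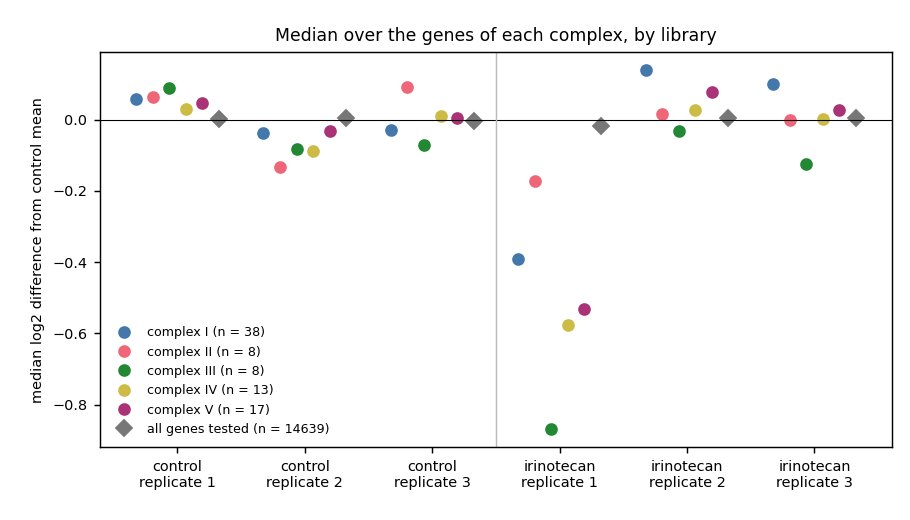
Median log2 difference from the control mean over the tested genes of each complex (coloured circles) and over all 14639 genes tested (grey diamonds) in each library. In irinotecan replicate 1 the complexes spread from -0.17 (complex II) to -0.87 (complex III) while the diamond sits at -0.02.

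Complex I oxidizes NADH and has 38 members here, of which 13 gave a positive log2 fold change (median -0.09), or 27 without irinotecan replicate 1 (median 0.06). The 7 core subunits had a median of -0.06 with all libraries and also without that one, with 1 and 2 of them positive. Ndufs1, which carries iron-sulphur clusters of the peripheral arm, had 1715, 1489 and 1670.3 normalized counts in control replicates 1, 2 and 3 and 1753, 1463 and 1471 in irinotecan replicates 1, 2 and 3. Ndufv1, which binds the flavin that accepts electrons from NADH, had 951, 881 and 969 against 1012, 1029 and 1023. The groups overlapped for Ndufs1, while the irinotecan values of Ndufv1 sat just above the highest control. The log2 fold changes were -0.06 (SE 0.14) and 0.13 (SE 0.12), and -0.14 and 0.14 without irinotecan replicate 1. Ndufv2, the flavoprotein partner of Ndufv1, was the member whose irinotecan values were all under the controls, with 1149, 1154 and 1089 against 660.2, 1053 and 1055 normalized counts. Its log2 fold change was -0.33 (SE 0.20), and -0.10 (SE 0.10) without irinotecan replicate 1.

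The 31 members of complex I outside the core, with Ndufa4 and its relative Ndufa4l2 counted by name, held both the most positive and the most negative values. The most negative was that of Ndufa4l2, given further below. Ndufb3, a subunit of the membrane arm (chr1:58586384-58595964, plus strand, GRCm38), had 168, 192 and 161 normalized counts in the controls and 225, 250.4 and 230.1 with irinotecan, 174 ± 16.5 against 235 ± 13.5 (SD, n = 3 each). All 3 irinotecan libraries were above all 3 controls. By limma the log2 fold change was 0.44 (SE 0.17, adjusted p = 0.743), and 0.47 without irinotecan replicate 1. Ndufb2, of the same arm, had 129, 210.2 and 159 against 213, 239 and 196, a log2 fold change of 0.40 (SE 0.22), with control replicate 2 inside the irinotecan range. Ndufs4, an accessory subunit of the peripheral arm, had 419.8, 451 and 402 against 495, 557 and 473, again without overlap (log2 fold change 0.26, SE 0.14).

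At the other end, next after Ndufa4l2, Ndufb11, an X-linked subunit of the membrane arm, had 938, 913 and 979.9 normalized counts under solvent and 271, 982 and 848 under irinotecan. Irinotecan replicate 1 was at 28.7% of the control mean while irinotecan replicate 2 was just above the highest control and replicate 3 below the lowest. A log2 fold change of -0.63 (SE 0.42) with all libraries was -0.05 (SE 0.11) without that library. The same pattern, with irinotecan replicate 1 under 50% of the control mean, was seen in 11 of the 38 genes of complex I, among them Ndufa11, Ndufb7, Ndufb6 and Ndufs7. Ndufs7, which carries the iron-sulphur cluster next to ubiquinone, was the 1 core subunit of these, at 43.6% in irinotecan replicate 1. Ndufa1, a small X-linked accessory subunit, had 124, 93.1 and 102 against 82.1, 159 and 183 normalized counts. Its log2 fold change was 0.34 (SE 0.32), and 0.69 (SE 0.21) without irinotecan replicate 1, where the adjusted p by limma was 0.296.

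Complex II oxidizes succinate and links the citric acid cycle to ubiquinone. Sdha, its flavoprotein (chr13:74322254-74350280, minus strand), had 2168, 2199.8 and 1899 normalized counts under solvent and 3611, 2088 and 2340.3 under irinotecan. Irinotecan replicate 1 was the highest library and replicate 2 lay within the controls. Its log2 fold change was 0.32 (SE 0.21, limma adjusted p = 0.743), and 0.08 (SE 0.11) without irinotecan replicate 1. Sdhb, the iron-sulphur subunit, had 1712, 1605 and 1928 against 1431, 1822 and 1402, a log2 fold change of -0.18 (SE 0.15). The membrane anchors gave 1368, 1250.5 and 1293 against 925, 1330.1 and 1338 for Sdhc and 998, 841 and 965 against 1003, 924 and 894 for Sdhd. Their log2 fold changes were -0.14 (SE 0.17) and 0.01 (SE 0.13), and the groups overlapped in each of these 4 subunits. The sign of Sdhc and of Sdhd turned without irinotecan replicate 1, to 0.03 and -0.04, and that of Sdhd also without control replicate 2 (-0.06).

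The 4 assembly factors of complex II were expressed at lower levels per length than its subunits, from 12.5 to 241.7 against 384.8 to 761.6 per kilobase. Sdhaf2, which helps to attach the flavin to Sdha, had 717, 621 and 818 normalized counts in the controls and 819, 822 and 693 with irinotecan (log2 fold change 0.12, SE 0.16). Sdhaf1, which matures the iron-sulphur subunit, had 41.1, 29.3 and 29.0 against 5.13, 30.8 and 50.7, with irinotecan replicate 1 at 15.5% of the control mean and the others within or above the controls. This gave a log2 fold change of -0.64 (SE 0.73), and 0.27 (SE 0.35) without that library. Sdhaf3, which acts with Sdhaf1, had 119, 95.1 and 122 against 107, 104 and 96.3 (-0.12, SE 0.21), and Sdhaf4, which binds Sdha during assembly, had 54.2, 79.5 and 75.5 against 27.7, 80.9 and 119.6 (-0.09, SE 0.50). For Sdhaf4 the fold change was 0.51 (SE 0.27) without irinotecan replicate 1.

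Complex III passes electrons from ubiquinol to cytochrome c, and 1 of its 8 members was positive, both with and without irinotecan replicate 1. The median was -0.29, and -0.08 without that library. The core proteins Uqcrc1 and Uqcrc2, which form the matrix side of the complex, had 2036, 1766 and 2053 against 1918, 1948 and 1755 normalized counts and 1437, 1588 and 1514 against 2222, 1453 and 1409. Uqcrc2 was thus highest in irinotecan replicate 1, and its log2 fold change of 0.13 (SE 0.19) was -0.08 without it. Uqcrfs1, the Rieske iron-sulphur protein that hands electrons on to cytochrome c1, had 1216, 1155 and 1364 against 960.0, 1232 and 1103 (log2 fold change -0.19, SE 0.15, or -0.09 without that library). Uqcrh, the hinge protein beside cytochrome c1, had 1385, 1409 and 1278 against 889, 1319.5 and 1200.0 (-0.27, SE 0.17, or -0.11 without irinotecan replicate 1).

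The small subunits of complex III carried the most negative values. Uqcr11 had 152, 109 and 88.1 normalized counts under solvent and 23.6, 98.2 and 107 under irinotecan, and Uqcrq had 724, 474 and 547 against 120.1, 537 and 605. Irinotecan replicate 1 stood at 20.3% and 20.7% of the control means, and the other 2 irinotecan libraries were within the control range for each gene. Fold changes were -0.83 (SE 0.55) and -0.75 (SE 0.55) on the log2 scale, and -0.14 and -0.0053 without irinotecan replicate 1. In Uqcrb, known as a ubiquinone-binding protein, that library was at 35.2% and in Uqcr10 at 45.4%. Uqcrb was the member with a positive value once that library was left out (0.29, SE 0.15).

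Complex IV reduces oxygen, and its catalytic subunits are encoded by mitochondrial DNA, so the nuclear members surround that centre. Of 13 tested, 3 were positive in log2 fold change (median -0.32), or 8 without irinotecan replicate 1 (median 0.03). Cox4i1, the ubiquitous form of subunit 4, had 2848, 2589.8 and 2368 normalized counts in the controls and 1570.0, 2332 and 2468 with irinotecan, Cox5a had 636, 572 and 679 against 333, 605 and 634, and Cox5b had 371, 215 and 214 against 188, 225 and 317. Irinotecan replicate 1 was the lowest library for each of these 3 subunits. Fold changes (log2) were -0.32 (SE 0.19), -0.32 (SE 0.25) and -0.12 (SE 0.28), and -0.11, -0.02 and 0.05 without that library. Cox5b was at 0.15 without control replicate 1, which was its highest library. Cox6b1, which faces the intermembrane space, had 1191, 1090.5 and 1038 against 209, 1126 and 1089, and Cox7b, an X-linked membrane subunit, had 904, 933 and 827 against 217, 932 and 883. For this pair irinotecan replicate 1 was at 18.9% and 24.4% of the control mean, and their log2 fold changes of -0.80 (SE 0.57) and -0.65 (SE 0.49) became 0.0031 and 0.03 without it.

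Cox6a1 was also low in irinotecan replicate 1, at 34.2% of the control mean. It had 1527, 1287 and 1588 normalized counts against 502, 1794 and 1463 (log2 fold change -0.41, SE 0.42, or 0.15 without that library). In some other subunits of complex IV irinotecan replicate 1 was closer to the controls. It was at 101% of the control mean for Cox7a2l, 87.3% for Cox7a2 and 66.7% for Cox8a, beside 70.4% for Cox5b. Cox7a2l, the supercomplex factor, had 3335, 3389.6 and 3859 normalized counts and 3566, 3505 and 2977, with a log2 fold change of -0.08 (SE 0.14), or -0.12 without irinotecan replicate 1. Cox7a2, its relative within the complex, had 751, 721 and 854 against 677, 967 and 883 (0.11, SE 0.17, or 0.26 without irinotecan replicate 1). Cox8a, a small membrane subunit, had 622, 538 and 673 in the controls against 408, 904 and 820.0, so irinotecan replicate 1 was below every control and the other irinotecan libraries were above every control. The resulting log2 fold change was 0.14 (SE 0.29), and 0.50 (SE 0.13, limma adjusted p = 0.193) without replicate 1, or -0.07 without irinotecan replicate 2.

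Complex V makes ATP, and the genes of its catalytic head overlapped between the groups. Atp5b (chr10:128083273-128090391, plus strand) had 14690.5, 13782 and 14326 normalized counts in the controls and 14111, 13707 and 13389 with irinotecan, a log2 fold change of -0.05 (SE 0.13). Atp5a1 had 8728, 8089 and 8831 against 10529, 8585 and 8542, a log2 fold change of 0.10 (SE 0.14), or 0.0034 without irinotecan replicate 1, its highest library. The central stalk, which turns inside the head, was uneven: Atp5c1 (gamma) stood at 91.8% of the control mean in irinotecan replicate 1, whereas Atp5d (delta) stood at 27.4% and Atp5e (epsilon) at 26.7%. Atp5d had 1630.4, 1486 and 1421 against 414, 1419.7 and 1514 normalized counts. Its log2 fold change of -0.65 (SE 0.44) was -0.04 without that library.

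The c-ring of complex V is built from 1 mature protein encoded by 3 genes, Atp5g1, Atp5g2 and Atp5g3. On the per-length scale Atp5g2 gave 61.5% to 62.7% of the summed level of the 3 genes in 5 libraries and 39.7% in irinotecan replicate 1. Atp5g3 gave 34.7% to 36.6% and 57.4%, and Atp5g1 gave 1.77% to 2.90% over all 6. Atp5g2 had 2988, 2751 and 2801 normalized counts in the controls and 749, 2874 and 2920.1 with irinotecan, against 2154, 2127 and 2148 against 1409, 2129 and 2187 for Atp5g3. These are shares of transcript level and do not measure the protein ring. They were close together in 5 libraries for Atp5g2 and Atp5g3 and stood apart in irinotecan replicate 1.

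Membrane subunits of complex V held both the highest log2 fold change of the 84 members, in Atp5j2, and the lowest value of irinotecan replicate 1 relative to the controls, in Atp5k. Atp5j2, subunit f (chr5:145183698-145192062, minus strand), had 742, 711 and 609 normalized counts in the controls and 1044, 945 and 1004 with irinotecan, 687 ± 69.7 against 998 ± 50.02 (SD, n = 3 each). All 3 irinotecan libraries lay above all 3 controls. By limma the log2 fold change was 0.54 (SE 0.14, adjusted p = 0.743), and 0.51 (SE 0.12) without irinotecan replicate 1. Atp5mpl, a small proteolipid of the complex (chr12:111961375-111966977, minus strand), had 307, 298 and 339.9 against 205, 511 and 533. Its irinotecan replicates 2 and 3 were above every control and its replicate 1 below every control, with a log2 fold change of 0.28 (SE 0.34). Without irinotecan replicate 1, a fit chosen after that library was seen to differ, DESeq2 called these 2 members higher, Atp5mpl at 0.73 (adjusted p = 0.0040) and Atp5j2 at 0.50 (adjusted p = 0.0479). That fit called 0.541% of 13684 genes higher and 0.563% lower. Limma without the same library called 0 members (background 0.0137% of genes higher and 0% lower), with 0.73 for Atp5mpl (adjusted p = 0.0768), and 5 members (Ndufa1, Ndufb3, Cox8a, Atp5j2 and Atp5mpl, all higher) had an unadjusted p under 0.05, where the background was 4.35% of genes higher and 5.14% lower.

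Atp5k, subunit e (chr5:108433244-108434448, minus strand), had 102, 104 and 52.3 normalized counts in the controls and 2.05, 80.9 and 154 with irinotecan. The value in irinotecan replicate 1 came from 2 reads, or 2.39% of the control mean, with a 95% Poisson interval of 0.290% to 8.64% that covers counting error only. Irinotecan replicate 3 was the highest of the 6 libraries. For Atp5k the log2 fold change was -1.30 (SE 1.26), and 0.44 (SE 0.35) without irinotecan replicate 1. Of the peripheral stalk, which holds the head still, Atp5h (subunit d) had 754, 742 and 783 against 923, 981 and 821 without overlap (log2 fold change 0.25, SE 0.13), and Atp5o, Atp5j and Atp5f1 had log2 fold changes of 0.24, -0.09 and -0.22. Without irinotecan replicate 1 these were 0.32, 0.10 and -0.03, so the sign of Atp5j turned.

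**Figure D4:**
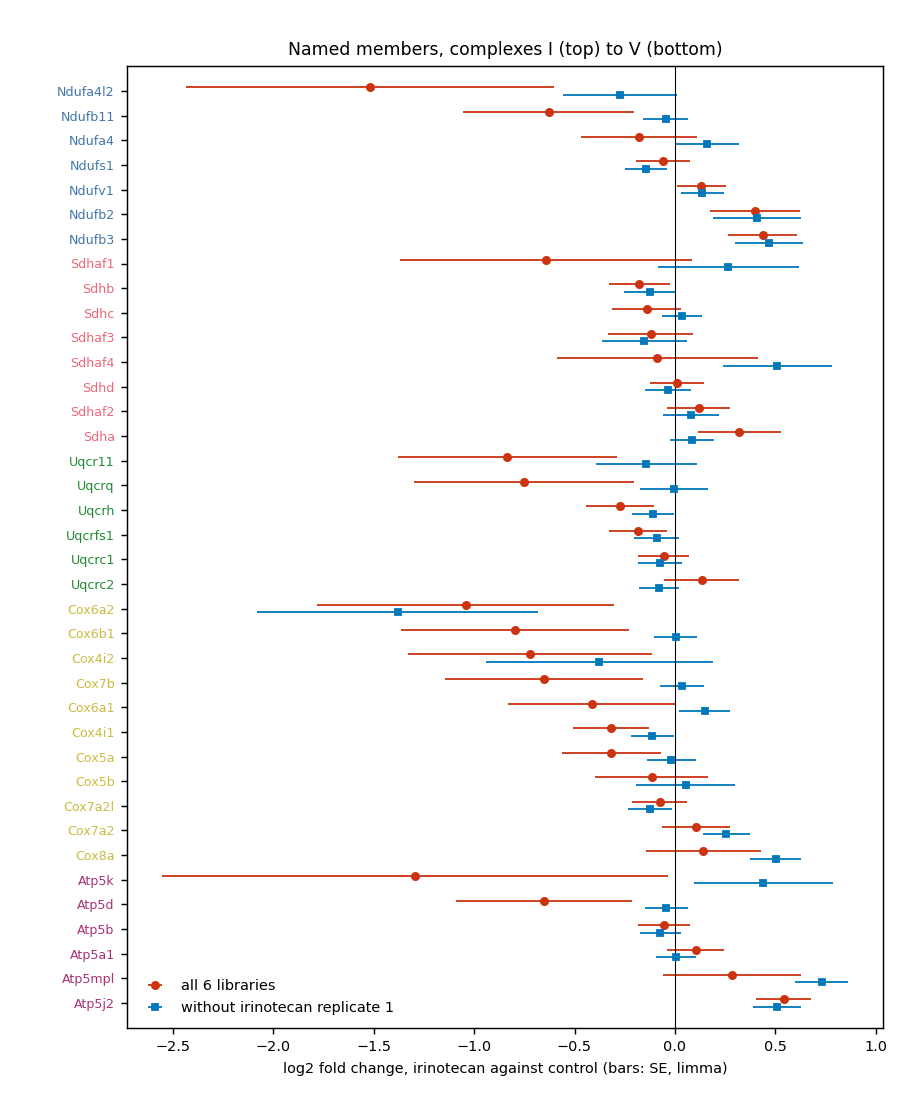
Log2 fold change of irinotecan against control with its standard error (limma) for the members shown, from complex I at the top to complex V at the bottom; red circles use all 6 libraries and blue squares leave out irinotecan replicate 1. The wide red bars left of 0, such as Atp5k at -1.30, mostly belong to genes whose blue square is near or above 0, while Atp5j2 sits at 0.54 and 0.51.

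Several subunits exist as a common form and a form tied to a tissue or condition, and the tumours carried the common forms. As a share of each pair on the per-length scale, Cox4i2, the form known from lung and low oxygen, was 0.639% to 1.72% of the Cox4i1 and Cox4i2 pair. Cox6a2, a form of heart and skeletal muscle, was 0.356% to 5.20% against Cox6a1. The other muscle forms gave 0.655% to 2.37% for Cox7a1 (against Cox7a2) and 0% to 0.373% for Cox8b (against Cox8a), and the testis form Cox6b2 gave 0% to 0.474% (against Cox6b1). Cox6b2, Cox7a1 and Cox8b were too low to be tested. Cox8b held 0 reads in control replicates 2 and 3 and irinotecan replicate 1, and Cox6b2 in control replicate 3 and irinotecan replicates 1 and 2, where a count of 0 allows up to 3 reads.

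Cox6a2 had 70.1, 16.7 and 34.9 normalized counts in the controls and 26.7, 29.9 and 5.07 with irinotecan, a spread that overlapped between the groups. This gave a log2 fold change of -1.04 (SE 0.74), and -1.38 (SE 0.70) without irinotecan replicate 1. Cox7a1 had 2.80, 6.27 and 4.84 against 3.08, 8.67 and 12.2. Skeletal muscle markers, of which 19 of 20 were in the table, summed to 983 to 1525 normalized counts in the controls and 1399 to 2092 with irinotecan. Eno3 gave the most of any marker in each library, with 862, 803 and 825 against 1113, 922 and 809. The sums did not simply follow that gene, as the highest, 2092 in irinotecan replicate 3, came with Eno3 at 809. Acta1 had 221, 10.5 and 194 against 61.6, 149 and 410. The 14 markers that were tested all had positive log2 fold changes (median 0.70, or 1.14 without irinotecan replicate 1). Relative to the control mean the medians of these markers were 1.38, -1.16 and 0.24 in control replicates 1, 2 and 3 and 0.28, 0.16 and 2.32 in irinotecan replicates 1, 2 and 3. Control replicate 1 was thus above irinotecan replicates 1 and 2, control replicate 2 was the lowest library and irinotecan replicate 3 the highest. Their part in the values of the muscle forms was not tested. Muscle creatine kinase (Ckm), a defining gene of skeletal muscle, was at 22.4, 0 and 12.6 against 0, 10.6 and 40.5 normalized counts, and myoglobin (Mb) at 1.87, 1.05 and 1.94 against 0, 0 and 1.01.

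Ndufa4l2, a relative of Ndufa4 known to be induced by low oxygen (chr10:127514967-127517154, plus strand), was the exception among these forms in its level. It made up 26.4%, 48.1% and 22.9% of its pair with Ndufa4 in the controls and 4.61%, 23.4% and 27.6% with irinotecan. Its normalized counts were 175, 347 and 162 against 12.3, 163 and 193, so control replicate 2 was high, irinotecan replicate 1 low, and the other 4 libraries close to each other. Across the groups the log2 fold change was -1.52 (SE 0.92), the most negative of the 84, and -0.27 (SE 0.28) without irinotecan replicate 1. Ndufa4 had 614, 473 and 687 against 321, 670.4 and 638 (-0.18, SE 0.29, or 0.16 without that library).

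The low values of irinotecan replicate 1 moved with gene length and with base composition. Among the members the medians rose from bin to bin with length but not evenly with GC content. Over all genes they fell from bin to bin with GC content but did not rise at each step of length. The members' median deposited length was 1688 bases, against 3968 over all genes tested, and their median transcript GC content 50.8%, against 50.1%. In that library the median difference from the control mean was -1.18 for the 21 members of up to 1000 bases, -0.74 for the 30 from 1000 to 2000, -0.28 for the 21 from 2000 to 4000 and -0.04 for the 12 longer ones. Over all genes the same bins gave -0.36, -0.43, -0.20 and 0.17. By GC content the members' medians were -0.61 up to 45% (9 genes), -0.30 to 50% (29), -0.49 to 55% (27), -0.96 to 60% (16) and -1.54 above (3), so the bin of lowest GC was under the next 2, and the first and last bins hold few genes. Over all genes these medians fell from bin to bin, at 0.24, 0.12, -0.04, -0.38 and -0.76. The rank correlation across the 84 members was 0.37 with length and -0.33 with GC content, and 0.32 and -0.32 across all genes, which share the library and its depth and are not independent replicates. In irinotecan replicates 2 and 3 the members' correlations were -0.03 and -0.06 with length and -0.23 and -0.05 with GC content. Other protein-coding genes of 1007 to 2591 bases, the middle 50% of the members' lengths, had a median of -0.50 in irinotecan replicate 1 (n = 2388). Of these genes, 62.0% were lowest in that library. The members' -0.48 and 63.1% are over all 84 of them, shorter and longer ones included, so the 2 sets are unlike in length. In every length bin above, the members' median was below that of all genes. With a smooth trend on GC content and length taken out of each library, the members' median log2 fold change was -0.07, against -0.01 over all genes, and limma called 0 of them. In that fit 4 members had an unadjusted p under 0.05, a count given without the share over all genes and so not read further.

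**Figure D5:**
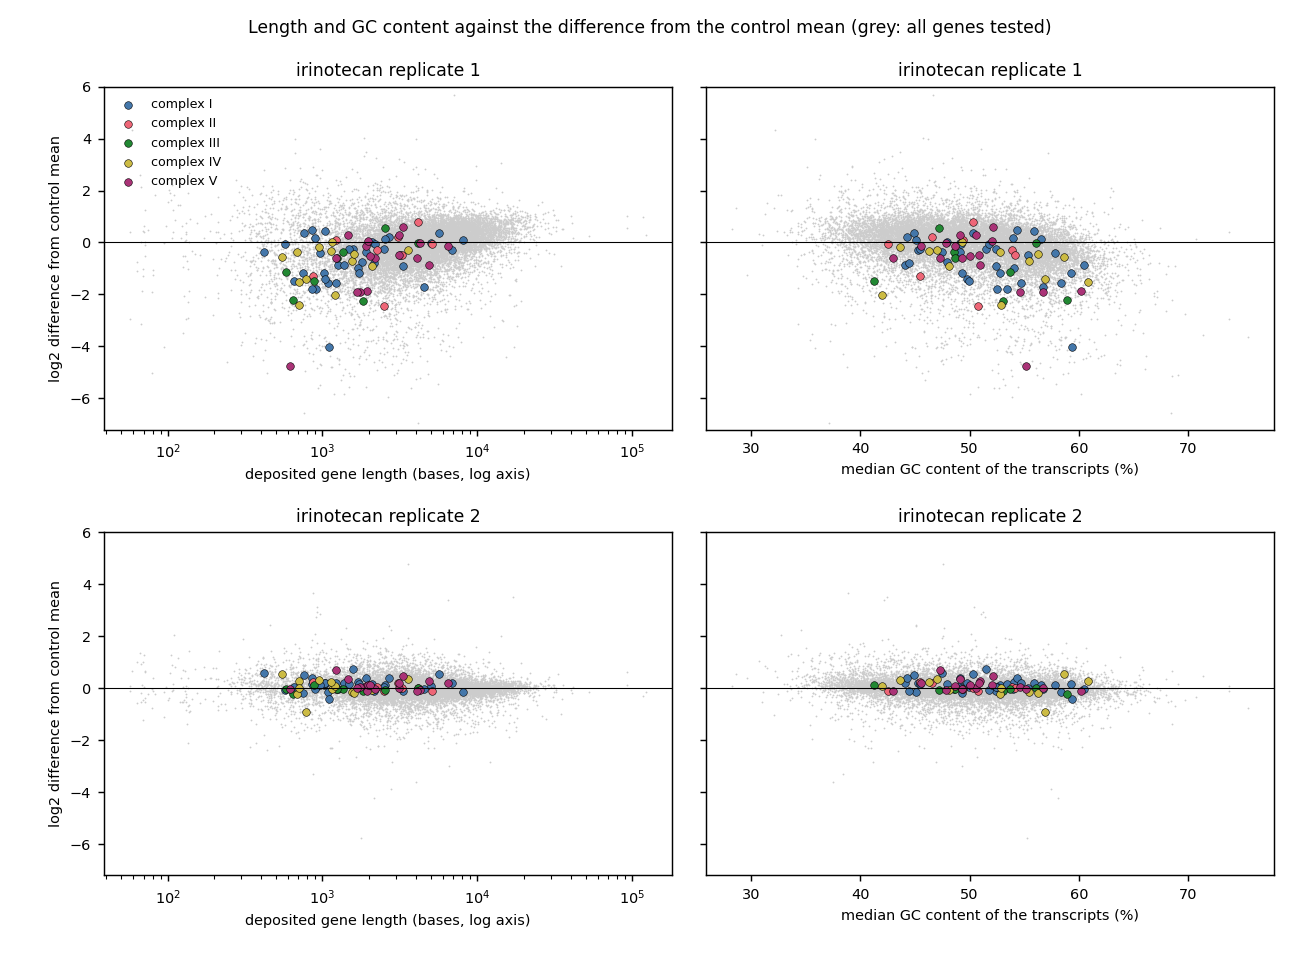
Log2 difference from the control mean against deposited gene length (left, log axis) and median transcript GC content (right) in irinotecan replicate 1 (top) and replicate 2 (bottom), with members coloured by complex and all genes tested in grey. In replicate 1 shorter members lie lower, with a median of -1.18 up to 1000 bases and -0.04 above 4000, and replicate 2 shows no such slope with length.

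Other genes of the pathway were read from lists, and limma called no gene of the 14639. An unadjusted p under 0.05 was reached by 2 of them, Cox16 with higher and Myc with lower values under irinotecan. These are 1 of 43 tested assembly factors and 1 of 17 regulators of mitochondrial biogenesis, with 0 in each other pathway list. The background was 2.68% of all genes higher and 3.08% lower. Cytochrome c (Cycs), the carrier between complexes III and IV, had 1076, 919 and 872 normalized counts in the controls and 587, 929 and 922 with irinotecan, and Cyc1 had 1857, 1520.2 and 1839.8 against 831, 1746 and 1627, both lowest in irinotecan replicate 1. Of 12 tested subunits encoded by mitochondrial DNA, 2 were positive (median log2 fold change -0.19), or 8 without irinotecan replicate 1 (median 0.12). Among these mt-Co2 had 1309, 1096 and 1984 against 269, 1374 and 964, whereas mt-Co3 had 511, 424 and 596 against 2129.6, 626 and 522, so irinotecan replicate 1 was the lowest library for one and the highest for the other. Their log2 fold changes were -0.997 (SE 0.54) and 0.81 (SE 0.47), or -0.30 and 0.18 without that library. Both genes were far below mt-Co1, with control means of 1463 for mt-Co2 and 511 for mt-Co3 against 226304. The reason was not tested, and these 2 genes do not stand for the other subunits. Of the 12, irinotecan replicate 1 was the lowest library for 8 and the highest for 2.

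Of 43 tested assembly factors, a list that also holds Sdhaf1 to Sdhaf4, 20 were positive (median -0.04, or 0.10 without irinotecan replicate 1). Cox16, an assembly factor of complex IV, had 52.4, 44.96 and 105 normalized counts in the controls and 102, 112 and 117 with irinotecan (log2 fold change 0.80, SE 0.33, limma adjusted p = 0.743). Atpaf2, which assembles the head of complex V, had 342, 368 and 353 against 161, 274 and 335 (-0.53, SE 0.26, or -0.22 without irinotecan replicate 1). Enzymes of the citric acid cycle and pyruvate dehydrogenase gave 7 of 19 positive (median -0.07, or -0.05 without irinotecan replicate 1), with Mdh2, malate dehydrogenase, at -0.32 (SE 0.23) and Idh2, isocitrate dehydrogenase, at -0.30 (SE 0.15). Mdh2 was at -0.05 and Idh2 at -0.18 without irinotecan replicate 1.

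Regulators of mitochondrial biogenesis gave 5 of 17 positive (median -0.10), or 6 without irinotecan replicate 1 (median -0.05). Nrf1, whose motif is shown above, had 756, 753 and 782 against 963, 745 and 794 normalized counts (0.12, SE 0.14, or 0.01 without that library). Twnk, the mitochondrial DNA helicase, was at -0.32 (SE 0.19) and Myc, a growth regulator, at -0.94 (SE 0.37, limma adjusted p = 0.743). Without irinotecan replicate 1 these were -0.15 and -0.44. Among carriers of adenine nucleotides and phosphate, 4 of 6 were positive (median 0.08), but 2 of 6 without irinotecan replicate 1 (median -0.09), so the sign of this median rests on that library. In this list the ADP/ATP translocases Slc25a4 and Slc25a5 were at 0.15 (SE 0.14) and 0.33 (SE 0.15), or 0.25 and 0.27 without it. Genes of uncoupling and alternative electron entry gave 2 of 8 positive (median -0.14), or 3 without irinotecan replicate 1 (median -0.02), with Etfb, of the electron transfer flavoprotein, at 0.60 (SE 0.30) and Sqor, sulphide quinone reductase, at -0.21 (SE 0.16). The value of Etfb was 0.38 without irinotecan replicate 1.

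Markers of other cells varied between the libraries. Macrophage markers, 12 of 12 in the table, summed to 29020 to 31124 normalized counts in the controls and 13483 to 30647 with irinotecan, irinotecan replicate 1 being the lowest. All 12 had negative log2 fold changes (median -0.41), and without irinotecan replicate 1 the median was -0.07, with 3 of 12 positive. Limma called none of them, 3 (Adgre1, Cd14 and Mrc1) had an unadjusted p under 0.05, where the background was 3.08% of genes lower, and 3 (Adgre1, Csf1r and Mrc1) had all irinotecan libraries below all controls, which is 25% where the background is 7.89%. Mrc1, the macrophage mannose receptor, had 5191, 4775 and 4809 normalized counts in the controls and 2409, 3829 and 2783 with irinotecan, a log2 fold change of -0.74 (SE 0.18), and -0.59 without irinotecan replicate 1. Erythrocyte markers summed to 420.3 to 2635 and 577 to 2159, and adipocyte markers, 6 of 10 in the table, to 247 to 409 and 106 to 370. Nearly all of the adipocyte sum came from Fabp4, with 399, 235 and 286 against 97.5, 236 and 363. The other adipocyte markers, Adipoq among them, were too low to be tested. Epithelial colon carcinoma markers, 11 of 14 in the table, summed to 1966 to 2424 and 2059 to 2114, and Krt20 gave 1759, 1608 and 2098 against 1943, 1665 and 1655 of this. The defining epithelial genes Epcam and Vil1 were at or near 0, with 0, 0 and 0 against 0, 2.89 and 0 for Epcam and 0.935, 1.05 and 0.968 against 3.08, 0 and 1.01 for Vil1. Other genes of this list were expressed, and 5 were tested: Krt20, Krt8, Krt18, Lgals4 and Cdh1. Krt18 had 124, 142 and 123 against 46.2, 125 and 103, and Lgals4 had 105, 124 and 82.3 against 45.2, 100 and 138. Krt8 had 50.5, 65.9 and 80.4 against 37.0, 149 and 143. The part of cell makeup in the values of the members was not tested.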

How the data were processed

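RNA sequencing of 3 control and 3 irinotecan tumour samples was analysed from 1 deposited table of 25251 genes. The submitters' processing notes name HISAT2 2.0.5, DESeq2 1.20.0, featureCounts 1.5.0-p3, CASAVA and fastp, and the build GRCm38 (mm10). The role of each tool, the annotation and the strandedness were not given in the sources used here. Per library, the authors deposited a normalized signal, that is, read counts divided by 1 factor, together with the gene length, their log2 fold changes and their p-values, per the file headers. The values were whole multiples of 1 step for 100% of genes (tolerance 1e-06), so whole reads could be recovered. On those reads edgeR 4.0.16 and limma-voom called 0 genes and DESeq2 1.42.0 called 28 higher and 19 lower.

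As the deposited values are not raw counts, limma 3.58.1 (R 4.3.3, empirical Bayes with a mean-variance trend) was fitted to log2(normalized count + 1) over the 14639 genes averaging 10 or more normalized counts, with group as the only term and Benjamini-Hochberg adjustment over all of them at 0.05. This scale understates changes of low genes. Fits were first tested on simulated data. The members and the gene lists were chosen with earlier results of these data known. Members named in detail are all of complex II, for each other complex the 2 highest and 2 lowest fold changes and the highest level per length, core subunits, tissue isoforms with their partners, and the 2 smallest p in each pathway list, and others named were chosen after their values were seen. A gene of the table is not reported here and stays in counts and medians. GC content is the median over a gene's GENCODE M21 transcripts (99.86% of genes and 100% of members). Reads of processed pseudogenes, antisense or overlapping genes could be shared with members. Reads carry no molecular identifiers, so intervals cover counting error only. Alternatives were other scalings, pseudocounts, filters and tools, each library left out, the replicate number as a block, library weights, and length and GC trends.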

Additional observations from a re-analysis of the deposited data

How the results depend on the processing

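In all fits with every library, 0 members were called. The median log2 fold change over the members, -0.13, ranged from -0.26 (without irinotecan replicate 2) to 0.041 (without irinotecan replicate 1) with 1 library left out, and was 0.0021 with estimated library weights. Without irinotecan replicate 1, alternatives chosen after seeing the data, edgeR gave 0.039 and DESeq2 0.041, and DESeq2 called 2 members. With 1 library left out, the median was -0.18 to 0.058 for complex I, -0.18 to 0.057 for complex II, -0.40 to 0.033 for complex IV and -0.24 to 0.065 for complex V. With library weights these were 0.011 for complex I, 0.041 for complex II, -0.055 for complex IV and 0.039 for complex V.

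The ranges of the log2 fold change with 1 library left out were -2.39 to 0.44 for Atp5k, -0.32 to 0.15 for Cox5b, -0.77 to 0.15 for Cox6a1, -1.21 to 0.0031 for Cox6b1, -0.00085 to 0.26 for Cox7a2, -0.12 to 0.0063 for Cox7a2l, -1.02 to 0.033 for Cox7b, -0.073 to 0.50 for Cox8a, -0.37 to 0.16 for Ndufa4, -1.27 to 0.27 for Sdhaf1, -0.53 to 0.51 for Sdhaf4, -0.23 to 0.034 for Sdhc, -0.064 to 0.060 for Sdhd and -0.079 to 0.25 for Uqcrc2. The sign also turned with library weights for Atp5k (0.14), Cox6a1 (0.098), Ndufa4 (0.12), Sdhaf1 (0.077), Sdhaf4 (0.46), Sdhc (0.0045), Sdhd (-0.041) and Uqcrc2 (-0.043). It turned with the length trend removed for Cox5b (0.0082), Cox7a2l (0.037) and Sdhaf4 (0.013). Taking out GC content as well, chosen after seeing the data, turned Cox5b (0.086) and Uqcrc1 (0.054). Sdhaf4 was at 0.13 by edgeR and 0.13 by DESeq2 on the recovered reads. Quantile normalization, pseudocounts of 0.5 and 10, no filter, protein-coding genes only and limma-voom turned no sign among the 45 results compared. Over the 82 members left without Sdhaf1 to Sdhaf4 and Atp5s, again chosen after seeing the data, the median was -0.14.

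With the replicate number as a block, 0 members were called and the median stayed at -0.13. In that fit 2 members had an unadjusted p under 0.05, again given without the share over all genes. Same-numbered libraries did not deviate together (correlations of -0.11, -0.0087 and -0.21 across genes), so the numbers were not taken as pairs, and no library correlated best with its own number. The causes of these changes were not tested. Depth limits the lowest genes: Cox6b2, Cox7a1 and Cox8b had few reads, and Atp5k had 2 reads in irinotecan replicate 1. With 3 libraries a group, 1 of them apart, small differences between groups are not resolved.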

Other observations

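Ndufb1-ps, a row named after the complex I accessory subunit Ndufb1, is annotated in the deposited table as a noncoding RNA of a bidirectional promoter and so is not among the 87. On GRCm38 it spans chr12:101968090-101977068, with a deposited length of 1153 bases. It had 132, 138 and 189 normalized counts under solvent and 245, 253 and 231 under irinotecan. All 3 irinotecan libraries, replicate 1 included, lay above all 3 controls. This gave a log2 fold change of 0.68 (SE 0.20, limma adjusted p = 0.743), and 0.68 without irinotecan replicate 1. The row was looked up after the members' values were seen. Ndufab1-ps, a processed pseudogene of the acyl carrier protein subunit, had 50.5, 37.6 and 32.0 against 7.19, 29.9 and 41.6 normalized counts (log2 fold change -0.87, SE 0.61, or -0.15 without irinotecan replicate 1).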
